A study of Mus musculus with 6 samples.

Results

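The G2 and M phase genes described here are 40 genes that a cell uses to enter and pass through mitosis. They were chosen by name, and each was represented by the probe set with its symbol that had the highest mean log2 signal over all arrays. Of the 40, 39 had such a probe set, out of 18193 genes with one on the array. Ccnb1, which encodes cyclin B1, was not analysed here because no probe set carried its name in the platform annotation used. HL-1 is a cardiomyocyte line that divides in culture and goes back to an atrial tumour of a mouse, and its RNA was hybridised to 6 Affymetrix arrays of 1 colour. The cells were confluent when they were placed in 1% oxygen (hypoxia, 3 arrays) or kept in 21% oxygen (normoxia, 3 arrays) for 8 hours, and no other treatment or genotype is given for either group. HL-1 is a single continuous line that owes its growth to a viral oncogene, and the labels do not say whether the 3 samples of a condition were grown in separate dishes. The p-values therefore weigh differences against a spread between samples that may be technical only.

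Genes of the G2 and M phases are transcribed in a wave late in the cell cycle. Cyclins A and B bind the kinase CDK1 and drive entry into mitosis, kinases of the Polo and Aurora families build the spindle, the spindle checkpoint holds anaphase back until every kinetochore is attached, and the anaphase-promoting complex with CDC20 then destroys securin and the cyclins. Most cardiomyocytes of the adult heart have left the cell cycle and express these genes at low levels, whereas HL-1 cells keep dividing. In cells that rest, and in cells that raise the CDK inhibitor p21, the DREAM complex represses these genes through a short promoter element, the cell cycle genes homology region (CHR). In dividing cells B-MYB and FOXM1 activate them through the same element, while NF-Y binds nearby CCAAT boxes.

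The promoters of the members showed this arrangement. Promoter windows of RefSeq (build GRCm38.p6), from 250 bases before to 50 bases after the start site, were held for 33 of the 40 genes. The letters TTTGAA of the CHR, searched on both strands, were found in 24 of the 33 windows, against 16.5% of the windows of 17492 protein-coding genes. CCAAT, also searched on both strands, was found in 26 of 33 against 39.03% of all windows, and at least 2 copies in 17 against 13.5%. Both motifs stood together in 21 of the 33 and in 6.68% of all windows, where a CHR and a CCAAT that shared an end letter would both be counted. A TATA box, searched as TATAAA, was found in 1 of 33 against 13.3%. Of the 30 CHR matches, 23 began within 50 bases of the start site. A match is a run of letters and not a site shown to be bound. The 120 bases just before the start site are printed for 5 members, with the CHR (TTTGAA, or TTCAAA on the other strand) and CCAAT (or ATTGG) in capitals. Cdk1, Cdc20 and Kif11 carry a CHR in this stretch. Ccnb2, the cyclin B that was measured, shows CCAAT boxes here and has its CHR matches outside this stretch, 5 bases after the start site and 167 before it. Bub1, the member with the smallest p-value, has CCAAT boxes and no CHR match in its window. The stretches lie at chr10:69352913-69353032 on the minus strand, chr4:118437344-118437463 on the minus strand, chr19:37376262-37376381 on the plus strand, chr9:70421555-70421674 on the minus strand and chr2:127831860-127831979 on the minus strand, each in the flank directly upstream of the gene.
Cdk1: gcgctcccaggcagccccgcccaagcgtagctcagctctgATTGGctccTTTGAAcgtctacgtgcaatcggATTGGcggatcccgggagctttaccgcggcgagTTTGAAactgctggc
Cdc20: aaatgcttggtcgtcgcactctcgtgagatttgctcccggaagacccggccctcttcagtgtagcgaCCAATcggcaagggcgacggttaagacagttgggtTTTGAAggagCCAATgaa
Kif11: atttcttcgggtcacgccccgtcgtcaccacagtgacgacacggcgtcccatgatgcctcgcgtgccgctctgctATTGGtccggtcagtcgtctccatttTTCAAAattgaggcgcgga
Ccnb2: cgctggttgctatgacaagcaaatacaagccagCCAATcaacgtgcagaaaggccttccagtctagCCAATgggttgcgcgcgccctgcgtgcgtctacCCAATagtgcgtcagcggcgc
Bub1: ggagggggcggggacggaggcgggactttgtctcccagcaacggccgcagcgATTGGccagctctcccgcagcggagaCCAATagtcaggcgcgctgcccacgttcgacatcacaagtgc

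All 6 arrays shared one scale, with a mean signal of 99.5 after trimming 2% of probe sets at each end, and median signals from 15 on hypoxia replicate 1 to 19 on normoxia replicate 2. All 10 cardiomyocyte markers passed the filter on dim probe sets, with a summed signal of 34239 to 36607 in hypoxia and 35834 to 37446 in normoxia. Markers of other cell types were dim. Those of fibroblasts summed to 138 to 254 in hypoxia and 161 to 179 in normoxia, with 3 of 8 above the filter. Endothelial markers summed to 158 to 236.5 and 173 to 224, with 2 of 7 above it, and leukocyte markers to 98.8 to 135 and 83.9 to 138, with 3 of 6. The endothelial marker Tie1 lay at or under 0.9 and the leukocyte marker Ptprc at or under 6.9 on every array. Others in the lists were brighter. Vwf stood at 82.3 to 109.4, Kdr at 49.3 to 102.5, Col3a1 at 53.2 to 93.5 and Csf1r at 29.8 to 70.3. The first 3 lay near the dimmest member, Cdc25c. No marker of any of the 4 lists passed limma's test after adjustment. At an unadjusted p under 0.05, the cardiomyocyte markers Tnni3 (log2 fold change -0.37, groups apart, adjusted p = 0.113) and Actn2 (-0.68, overlapping, adjusted p = 0.322) were lower in hypoxia and Nppa (0.76, groups apart, adjusted p = 0.240) was higher. The macrophage marker Cd68 was also higher, at 39.3, 49.2 and 43.4 against 25.3, 18.8 and 16.5 in normoxia (adjusted p = 0.157), and the part of these markers in the members' values was not tested.

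All 39 measured members gave signals above the filter in this line, as did 11332 of 18193 genes. Of the 39, 0 passed the test for a change after 8 hours at 1% oxygen. The group means of single members ran from 88.5 (Cdc25c in normoxia) to 3798 (Smc4 in normoxia), against a filter at a geometric mean signal of 14.1. Small differences toward hypoxia prevailed, the one with the smallest p-value being in the checkpoint kinase Bub1. By the estimate from its brightest probe set, every member differed by less than 1.5-fold. Some further probe sets and some interval bounds lay beyond that, as given below. Bulk signals cannot tell a change in the share of cells in G2 and M from a change in RNA of these genes per cell. By limma with Benjamini-Hochberg adjustment over all probe sets tested, 0 of the 39 members passed at an adjusted p under 0.05 in either direction. At an unadjusted p under 0.05, 8 were higher in hypoxia (Bub1, Smc2, Anln, Top2a, Ccna2, Kif4, Kif23 and Tpx2) and 0 were lower. Over all 11332 genes tested, 0.75% passed after adjustment, 0.662% higher and 0.0882% lower, which amounts to less than 1 gene in 39. Without adjustment, 6.13% of all genes were higher and 6.3% lower. The number of genes called over the whole array varied with the array left out. It was 85 with all 6 arrays. Without hypoxia replicate 1, 2 or 3 it was 24, 37 and 89, and without normoxia replicate 1, 2 or 3 it was 128, 52 and 26. The members' count was 0 in each of these fits.

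The direction of the members was less even than that of all genes. Of the 39, 33 had a log2 fold change above 0 (32 after quantile normalization or cyclic loess and 36 after median centring), against 44.4% of all genes (59.9% after median centring), and the members' median was 0.15, against -0.040 over all genes. The 6 below 0 were Ccnb2, Cdc25b, Nek2, Cenpa, Nuf2 and Smc4, of which Ccnb2, Nek2 and Nuf2 were above 0 after median centring. The 3 hypoxia arrays lay above the 3 normoxia arrays in 12 members, which is 30.8% of them, against 8.16% of all genes. They lay below in 0 members, against 9.91%. The 12 were Ccna2, Aurka, Bub1, Ndc80, Kif11, Kif20a, Kif23, Kif4, Tpx2, Anln, Top2a and Smc2. Members of one phase of the cell cycle share their source in each culture and are not independent, and the list was chosen with earlier results known, so these shares describe the members and are not a test. The intervals bound a change only for the brightest probe set of each gene, and only against a spread that may be technical. The 95% interval of the log2 fold change lay within 1 in either direction for 38 of 39 members, as for 74.2% of all genes. The upper bound was under 1 for all 39, the highest being 0.91 for Cenpe. The lower bound was under -1 for Smc4 alone, at -1.31.

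**Figure D1:**
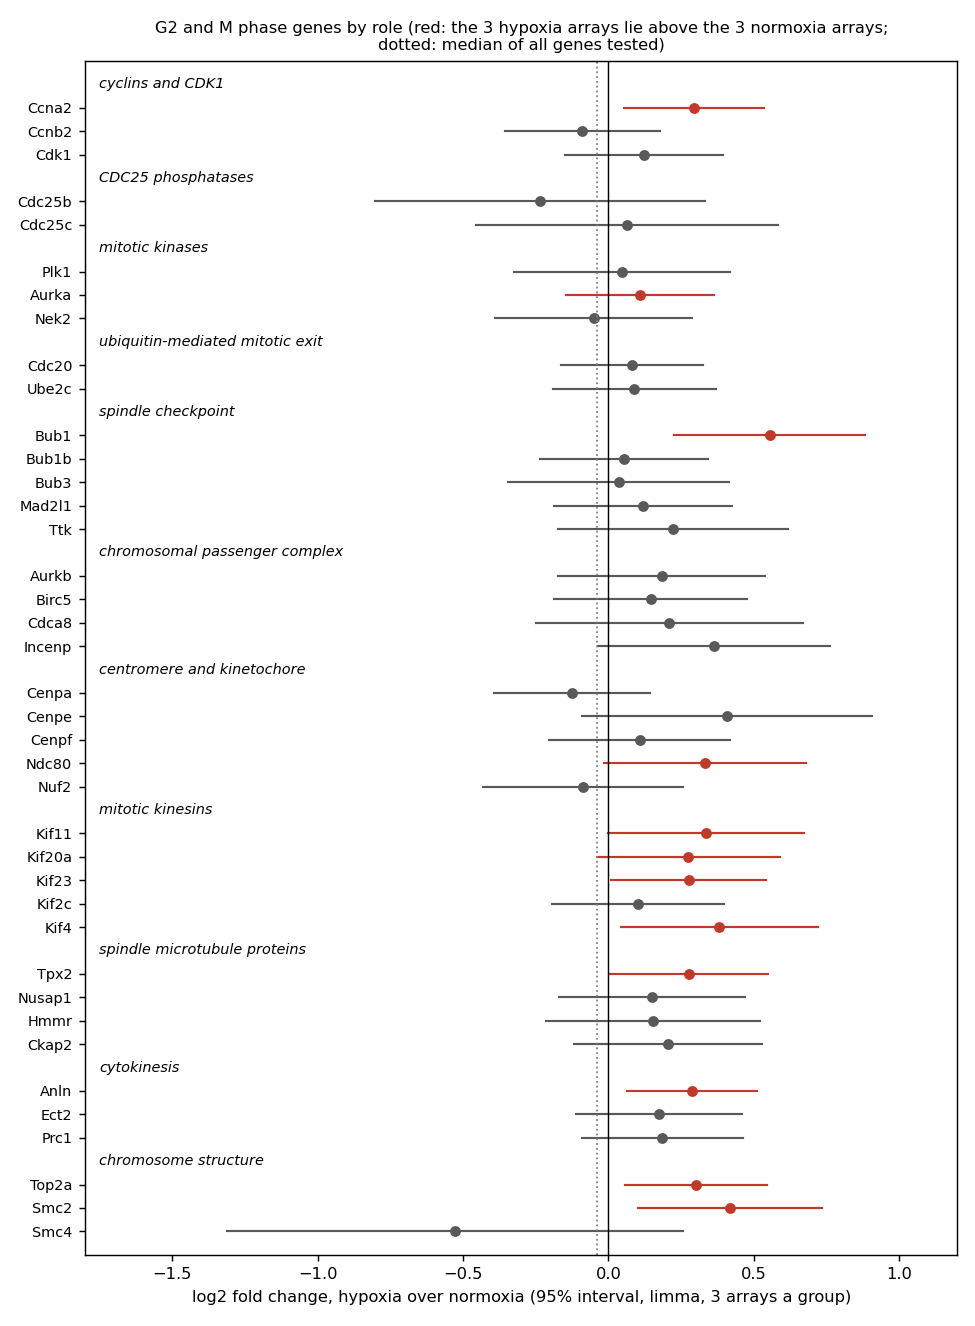
Log2 fold change of each of the 39 members, hypoxia over normoxia, with its 95% interval from limma (3 arrays a group), grouped by role. Points in red are the 12 members whose 3 hypoxia arrays all lay above the 3 normoxia arrays; 33 of 39 points lie to the right of 0, 8 intervals leave out 0, and no member passed after adjustment.

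Most members stood high or low on the same arrays. Taken against each gene's mean over the 6 arrays, the median member stood at 0.098, 0.021 and 0.18 log2 on hypoxia replicates 1, 2 and 3. It stood at -0.0052, -0.18 and -0.073 on normoxia replicates 1, 2 and 3. All 3 hypoxia medians thus lay above the 3 normoxia medians, with hypoxia replicate 2 and normoxia replicate 1 close together. The means of these medians were 0.10 (SD 0.080) in hypoxia and -0.085 (SD 0.086) in normoxia. Hypoxia replicate 3 was the highest array for 20 of 39 members, and normoxia replicate 2 was the lowest for 23. The same median over all genes stayed between -0.017 and 0.038 on every array. The median log2 signal over all probe sets also differed, being lowest on hypoxia replicate 1 (3.91) and highest on normoxia replicate 2 (4.25), where the members were lowest. After quantile normalization the members' medians were 0.078, 0.027 and 0.13 in hypoxia and -0.011, -0.13 and -0.060 in normoxia. The median fold change of the members was 0.10 without hypoxia replicate 3, 0.12 without normoxia replicate 2, 0.23 without hypoxia replicate 2 and 0.23 without normoxia replicate 1.

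**Figure D2:**
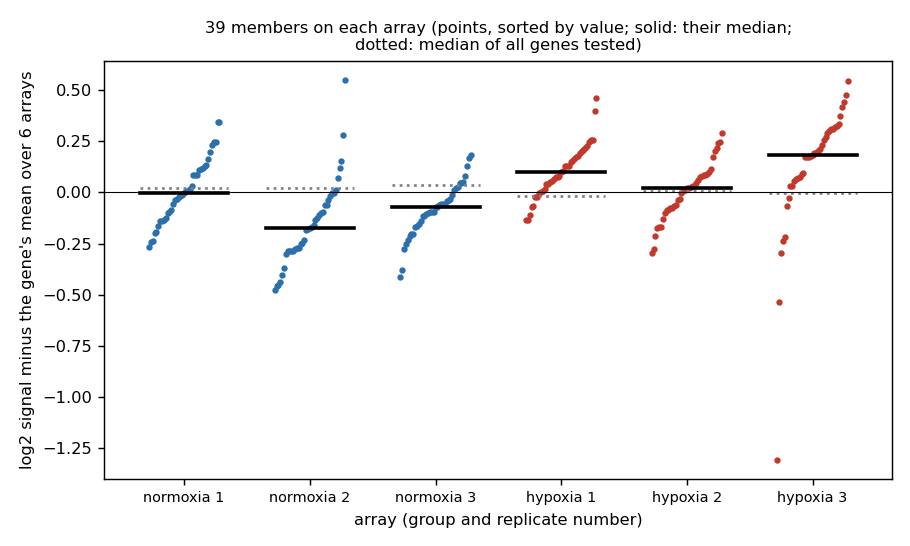
Log2 signal of each of the 39 members minus its own mean over the 6 arrays, by array, with the members' median (solid line) and the median of all genes tested (dotted line). Members sit highest on hypoxia replicate 3 (median 0.18) and lowest on normoxia replicate 2 (median -0.18), while hypoxia replicate 2 (0.021) and normoxia replicate 1 (-0.0052) are close; the single low point on hypoxia replicate 3 is Smc4.

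The cyclins and their kinase gave small differences of both signs, and 0 of the 3 measured passed. Ccna2, whose product works in S phase and G2, had signals of 1468, 1714 and 1645 in hypoxia and 1319, 1356 and 1259 in normoxia, in replicate order as in all such values. Its groups did not overlap, and its log2 fold change was 0.29 (SE 0.11, adjusted p = 0.362). A further probe set of Ccna2, at 1217, 1316 and 1223 in hypoxia and 1073, 1173 and 1237.5 in normoxia, overlapped between groups, with a fold change of 0.11 (SE 0.11). Ccnb2, the cyclin B measured here, had signals of 864, 904 and 866 in hypoxia and 991, 832 and 989.9 in normoxia. Normoxia held both the lowest and the highest of its arrays, with a fold change of -0.090 and a 95% interval of -0.36 to 0.18. Cdk1, the kinase both cyclins activate, had signals of 1713, 1567 and 1956 in hypoxia and 1766, 1479.6 and 1559 in normoxia. Normoxia replicate 1 lay above hypoxia replicates 1 and 2, so the groups overlapped (fold change 0.12, interval -0.15 to 0.39). The phosphatases that switch CDK1 on were measured at much lower precision. Cdc25b averaged 130.2 ± 32.8 in hypoxia and 154 ± 43.7 in normoxia (± SD over 3 arrays each), with a fold change of -0.24 (-0.80 to 0.33), and Cdc25c averaged 92 ± 17.1 in hypoxia and 88.5 ± 19.7 in normoxia, with 0.064 (-0.46 to 0.58).

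The mitotic kinases gave small differences. Plk1, the Polo-like kinase of mitotic entry and spindle assembly, had signals of 491, 506 and 381 in hypoxia and 372, 486 and 474 in normoxia. One array of each condition, hypoxia replicate 3 and normoxia replicate 1, was low, and the groups overlapped (fold change 0.046, interval -0.33 to 0.42). Aurka, the Aurora kinase of the centrosomes, had signals of 902, 857 and 856 in hypoxia and 828, 752 and 847 in normoxia. Its hypoxia arrays all lay above the normoxia arrays, but by so little that the fold change was 0.11 (SE 0.11, adjusted p = 0.761). Nek2, a centrosomal kinase, had a fold change of -0.051 (-0.39 to 0.29).

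The genes of mitotic exit, bright in both conditions, overlapped throughout. Cdc20, the activator of the anaphase-promoting complex, had signals of 2367, 2755 and 2935 in hypoxia and 2613, 2617 and 2362 in normoxia. Hypoxia replicate 1 was about level with the lowest normoxia array, and the fold change was 0.081 (interval -0.16 to 0.33). Ube2c, the ubiquitin-conjugating enzyme of that complex, averaged 2452 ± 238 in hypoxia and 2312 ± 302 in normoxia, with a fold change of 0.089 (-0.19 to 0.37).

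Of the 5 spindle checkpoint genes, Bub1 differed most. Bub1, a kinase that recruits checkpoint proteins to kinetochores, had signals of 579, 444 and 513 in hypoxia and 367, 318 and 358 in normoxia. The lowest hypoxia array lay well above the highest normoxia array, and the log2 fold change was 0.55 (SE 0.15, 1.47-fold), which did not pass after adjustment (limma, adjusted p = 0.185). Over the alternative fits its adjusted p ran from 0.0634, with array weights, to 0.51 without normoxia replicate 2. Its other tested probe set, at signals of 26.2 to 47.0, had a fold change of 0.34 (SE 0.30) with overlapping groups. Bub1b, which encodes the checkpoint inhibitor BUBR1, had signals of 380.2, 387 and 396 in hypoxia and 389, 347 and 386 in normoxia. All 6 arrays lay within a narrow band, and the fold change was 0.053 (interval -0.24 to 0.34). Bub3, the partner of both, had a fold change of 0.035 (-0.021 after quantile normalization and -0.026 after cyclic loess), and its highest array was normoxia replicate 1. Mad2l1, which encodes the CDC20 inhibitor MAD2, was at 0.12 and Ttk, the kinase MPS1 at the head of the checkpoint, at 0.22, both with overlapping groups and adjusted p of 0.784 and 0.685.

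The 4 genes of the chromosomal passenger complex, which corrects faulty attachments and later directs cytokinesis, all had fold changes above 0 with overlapping groups. Aurkb, its kinase, had signals of 681, 682 and 493 in hypoxia and 486, 567 and 569 in normoxia. Hypoxia replicates 1 and 2 lay above every normoxia array, and hypoxia replicate 3 lay among them (fold change 0.18, interval -0.17 to 0.54). Birc5, which encodes survivin, had signals of 950, 919 and 1193 in hypoxia and 1046, 924 and 796 in normoxia, with hypoxia replicate 3 highest and a fold change of 0.15 (-0.19 to 0.48). Cdca8, which encodes borealin, was at 0.21. Incenp, the scaffold of the complex, was at 0.36 (SE 0.18, adjusted p = 0.507). The brightest probe set of Incenp was not matched by its others, which stood at -0.11, 0.068 and -0.21.

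Centromere and kinetochore genes did not share a direction. Cenpa, the histone H3 variant that marks centromeres, had signals of 1307, 1086 and 1236 in hypoxia and 1361, 1399 and 1198 in normoxia. Hypoxia replicate 2 was the lowest array and the groups overlapped (fold change -0.13, interval -0.39 to 0.14). Ndc80 and Nuf2 are partners in the complex that holds microtubules, yet Ndc80 was at 0.33 (SE 0.16) with no overlap between groups and Nuf2 at -0.087 (SE 0.15) with overlap. The difference between them was not tested. Cenpe, the kinesin that moves chromosomes to the spindle equator, was at 0.41, with means of 338 ± 72.1 in hypoxia and 257 ± 73.8 in normoxia and the largest coefficient of variation of any member in normoxia (28.7%). Cenpf, a kinetochore protein made in G2, was at 0.11.

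The mitotic kinesins, motors of the spindle, formed the role in which most members had groups apart, 4 of 5. This compares with 30.8% of all members and 8.16% of all genes, and the roles were ranked after their values were seen. Kif11, the motor that pushes the spindle poles apart, had signals of 457, 437 and 579 in hypoxia and 378, 365 and 417 in normoxia. Hypoxia replicate 3 was highest, and the fold change was 0.34 (SE 0.15, adjusted p = 0.46). Further probe sets of Kif11 stood at 0.14 and 0.18, with overlapping groups. Kif20a, a motor of cytokinesis, had signals of 425, 379 and 425 in hypoxia and 332, 309 and 379 in normoxia. The lowest hypoxia array exceeded the highest normoxia array by a fraction of 1 signal unit, and the fold change was 0.27 (SE 0.14). Kif23, the motor subunit of centralspindlin, had signals of 637, 659 and 599 in hypoxia and 519.8, 507 and 538 in normoxia. Its arrays were tight within each condition (fold change 0.28, SE 0.12, adjusted p = 0.439). A further tested probe set of Kif23 stood at 0.22, with overlapping groups. Kif4, a chromosome-bound kinesin, had signals of 365, 373 and 312 in hypoxia and 279.8, 236 and 291 in normoxia, with a fold change of 0.38 (SE 0.15, adjusted p = 0.4). Kif2c, which depolymerizes microtubules at centromeres, was at 0.10 with overlapping groups.

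Proteins that bundle or organise spindle microtubules all had fold changes above 0 by their brightest probe sets. Tpx2, which activates Aurora A on the spindle, had signals of 788, 857 and 787 in hypoxia and 694, 604 and 715 in normoxia. All hypoxia arrays lay above all normoxia arrays, with a fold change of 0.28 (SE 0.12, adjusted p = 0.456). Its further probe sets did not share a direction, at 0.20, -0.58 and -0.25, all with overlapping groups, and the mean of all its probe sets gave -0.089. Nusap1, Hmmr and Ckap2, which bind spindle microtubules, were at 0.15, 0.15 and 0.21, with overlapping groups and adjusted p of 0.739, 0.768 and 0.643. In all 3 of them hypoxia replicate 3 was the highest array.

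For cytokinesis, anillin had the smallest standard error of all members. Anln, which organises the contractile ring, had signals of 2999, 2823 and 3003 in hypoxia and 2591, 2182 and 2477 in normoxia. The groups were apart and the fold change was 0.29 (SE 0.10, adjusted p = 0.331). A further probe set of Anln, at signals of 178, 164 and 184 in hypoxia and 117, 98.1 and 136 in normoxia, was also apart, with a fold change of 0.59 (SE 0.17). Ect2, the activator of RhoA at the cleavage plane, was at 0.17 and Prc1, which bundles the midzone, at 0.19, both with overlap.

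Genes of chromosome structure held the largest difference toward normoxia, in a single array. Top2a, the topoisomerase that untangles chromosomes, had signals of 1993, 1838 and 2041 in hypoxia and 1647, 1432 and 1692 in normoxia. The groups did not overlap (fold change 0.30, SE 0.11, adjusted p = 0.35). Smc2, a core ATPase of condensin, had signals of 967, 929 and 1125 in hypoxia and 849, 643 and 779.7 in normoxia, also apart, with a fold change of 0.42 (SE 0.14, adjusted p = 0.313). Smc4, the other condensin ATPase, was singled out after its values were seen. Its signals were 4166, 3419 and 1279 in hypoxia and 4002, 3837 and 3554 in normoxia, so that hypoxia replicate 3 alone was low and the other 5 arrays overlapped, giving -0.53 (SE 0.35). Another probe set of Smc4 had 1935, 1861 and 2247 in hypoxia and 1891, 1695 and 1871 in normoxia, and hypoxia replicate 3 was its highest array. Without hypoxia replicate 3, the fold change of the brightest Smc4 probe set was -0.0072.

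**Figure D3:**
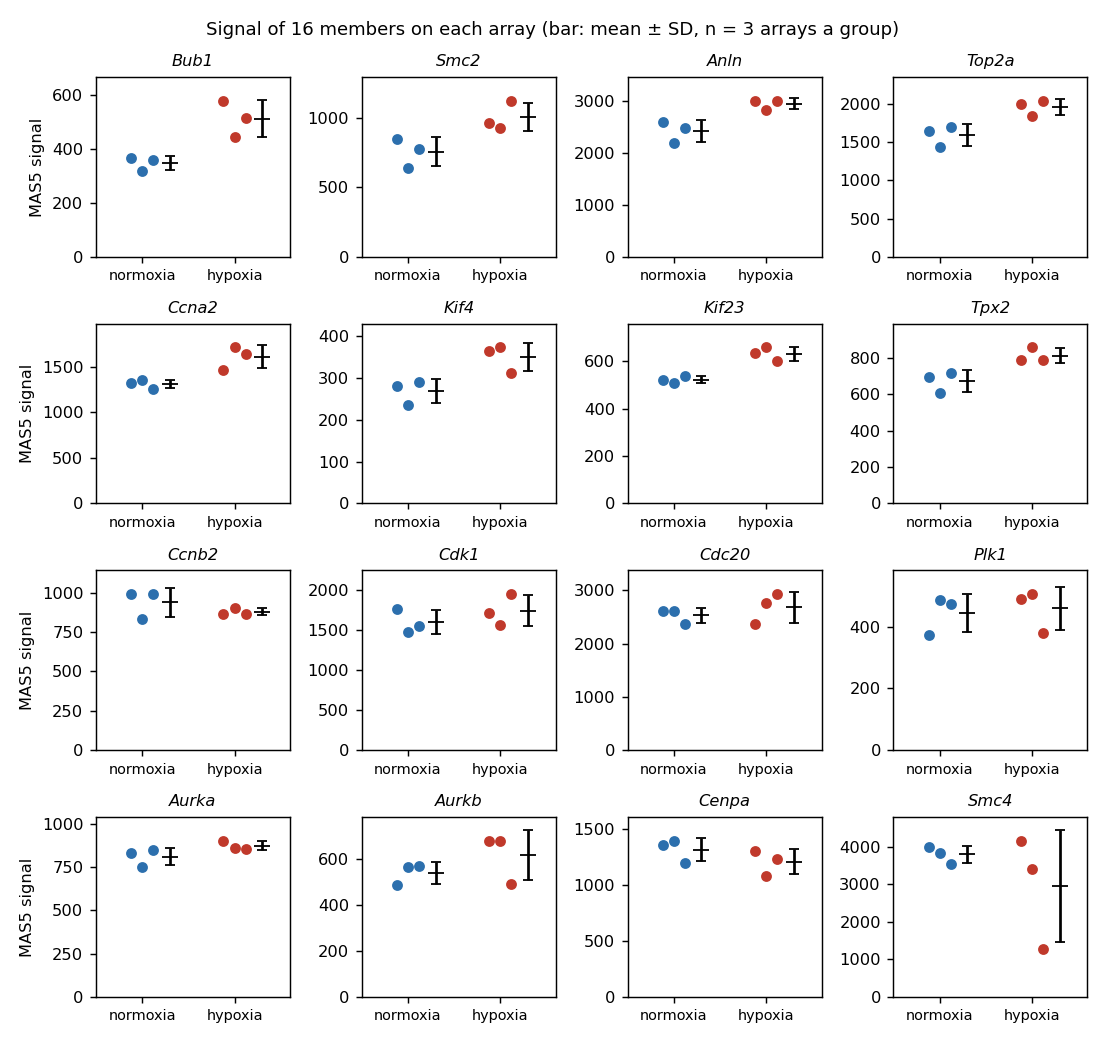
MAS5 signal of 16 members on each array, with the mean and SD of the 3 arrays of each condition beside the points; each axis starts at 0 and has its own scale. Bub1, Smc2, Anln, Top2a, Ccna2, Kif4, Kif23 and Tpx2 (upper rows) have groups that do not overlap, as does Aurka below, whereas Ccnb2, Cdk1, Cdc20, Plk1, Aurkb and Cenpa overlap, and Smc4 has 1 low array, hypoxia replicate 3 at 1279.

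Further probe sets of the same genes leaned less toward hypoxia than the brightest ones, a difference that was not tested. The members had 92 probe sets in all. Of those that did not represent their gene, 41 passed the filter, from 24 genes. Their median log2 fold change was 0.071, with 27 of 41 above 0, and 0 were called. The sign was that of the brightest probe set in 26 and the opposite in 15. For the 12 members whose groups were apart, 13 further probe sets of 8 genes could be read. Of these 11 were above 0, and 1, the one of Anln, was itself apart. The widest disagreement was in Kif2c, where a dim probe set at 13.5, 17.7 and 5.6 in hypoxia and 27.1, 25.2 and 26.9 in normoxia was lower on all 3 hypoxia arrays, with a fold change of -1.26 (SE 0.48). The brightest probe set of Kif2c stood at 0.10 and its remaining ones at 0.14 and -0.038. When all probe sets of a gene were averaged before the fit, 26 of 39 members had a fold change above 0, with a median of 0.12. That mean, which also takes in probe sets too dim for the filter, turned the direction of Bub1b, Cdc25c, Cenpa, Cenpf, Kif23, Kif2c, Nusap1, Tpx2 and Ttk.

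**Figure D4:**
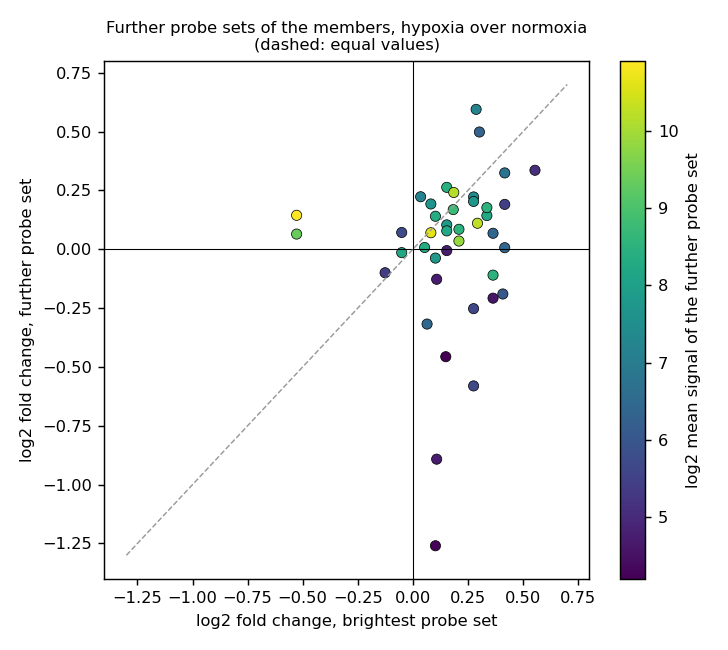
Log2 fold change, hypoxia over normoxia, of the 41 further probe sets of the members (vertical) against that of the brightest probe set of the same gene (horizontal), coloured by the log2 mean signal of the further probe set. 27 of the 41 points lie above 0, the 2 at the far left are those of Smc4, and the lowest point is the dim probe set of Kif2c at -1.26.

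Members with and without a match to the CHR letters TTTGAA had medians that lay close together, and the difference was not tested. Only these exact letters were searched, so a member without a match is not shown to lack the element. Among the 24 with a CHR match in the window the median was 0.16 on the log2 scale, and 22 were above 0. The 8 measured members with a window but no CHR match had a median of 0.13, with 5 above 0, and ran from -0.24 (Cdc25b) to 0.55 (Bub1). The 7 members with no window here had a median of 0.27.

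Other genes linked to G2 and mitosis were read from 6 lists, and the list of regulators includes their E2F and RB partners. The lists hold 117 genes, of which 115 passed the filter. Of these 0 passed the test by limma, against 0.75% of all genes. At an unadjusted p under 0.05, 10 were higher and 3 lower, against 6.13% and 6.3% of all genes. In these lists 66 of 115 (57.4%) were above 0, against 44.4% of all genes. Their median of 0.050 stood between the members (0.15) and all genes (-0.040), and centring each array on its median adds 0.11 to every such value. The regulators of this transcription, taken with their E2F and RB partners, had a median of -0.18, with 6 of 22 above 0. Foxm1, the activator of G2 and M genes, had signals of 114, 176 and 74.4 in hypoxia and 89.4, 243 and 215 in normoxia, with a fold change of -0.55 and a wide interval (-1.45 to 0.35). Mybl2, which encodes B-MYB, was at 0.18 (-0.35 to 0.71). Rb1, the retinoblastoma protein that restrains E2F, had signals of 362, 379 and 391 in hypoxia and 273, 245 and 253 in normoxia, fully apart, with a fold change of 0.56 (SE 0.13, adjusted p = 0.133, and 0.0506 to 0.491 over the alternatives).

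The machinery showed the same mixture. The anaphase-promoting complex and its regulators had 7 of 19 genes above 0 and a median of -0.068, and Pttg1, which encodes securin, was at -0.29 (SE 0.18). Genes of mitotic entry and the G2 checkpoint had 8 of 12 above 0 and a median of 0.12. Among them Wee1, the kinase that holds CDK1 inactive, was at 0.15, and Gtse1, a microtubule-binding protein of G2, at 0.46 (SE 0.18, adjusted p = 0.393). Other kinetochore and centromere genes had 24 of 30 above 0 and a median of 0.13, with Spc25, a partner of Ndc80 and Nuf2, at 0.47 (SE 0.16). Condensin and cohesin had 9 of 14 above 0 and a median of 0.040, with the condensin subunit Ncapg at 0.44 (SE 0.16). Other spindle and cytokinesis genes, a list that also holds the proliferation marker Mki67, had 12 of 18 above 0 and a median of 0.17. Mki67, present in all cycling cells, had signals of 1269, 1207 and 1365 in hypoxia and 1105, 924 and 924 in normoxia, apart, with a fold change of 0.38 (SE 0.12, adjusted p = 0.269).

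Neighbouring parts of the cell cycle are given for comparison. In S phase, 11 of 15 genes were above 0 with a median of 0.12, and 0 passed by limma (0 also at an unadjusted p under 0.05), with Pcna, the DNA polymerase clamp, at 0.16 and Mcm2, a subunit of the replicative helicase, at -0.34 (SE 0.17). Of 7 CDK inhibitors, 1 passed the test, higher in hypoxia, against 0.662% of all genes in that direction. At an unadjusted p under 0.05, Cdkn1c (p57, -0.39, adjusted p = 0.448) and Cdkn2c (p18, -0.28, adjusted p = 0.429) were lower, both with groups apart. Over all genes, 6.3% were lower at that p and 9.91% had groups apart in that direction. Cdkn1a (p21) rose from 866, 987 and 738 in normoxia to 1946, 2157 and 1407 in hypoxia, by 1.08 on the log2 scale (adjusted p = 0.0262), and missed the threshold when replicate 1 or 2 of hypoxia (adjusted p = 0.192 and 0.109), replicate 3 of normoxia (0.146) or the variance trend (0.190) was left out.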

How the data were processed

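The authors deposited 1 intensity per probe set and array on a linear scale, made with MAS5 per the submitters' processing notes. The sources used here do not give its version or settings. MAS5 works on 1 array at a time and is noisy near background, the number of arrays limits the precision, and detection calls were not used. No further scaling was applied. A floor of 0.1 replaced the 10 zeros before log2 was taken. Probe sets with a mean log2 signal above the median over 45037 were kept (22518). The test was limma 3.58.1 (R 4.3.3; lmFit and eBayes with trend, two-sided, no covariates) on the 2 conditions, adjusted by Benjamini-Hochberg over all probe sets kept. Fold changes are log2, hypoxia over normoxia, with limma's moderated SE. The procedure was run on simulated data with independent noise and added effects larger than any member's difference. That setting does not cover differences as small as those of the members, or shifts shared by genes on an array. An exact permutation test of 3 against 3 cannot go below 0.1. None of the 15 pairs of arrays was identical.

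Names came from GEO's platform annotation, which can be old (34945 with 1 symbol, 932 with several, 9160 with none). The members and gene lists were chosen with earlier results of these data known. Per-array values are printed for 16 listed members, as far as measured, and the 8 with the smallest p. Of the other lists, every gene called, the gene with the smallest p in each list and 6 listed genes are named. Alternatives were other normalizations, an offset, other filters and variance models, array weights, a block for the replicate number, other probe set rules, and leaving out each array. Promoter windows, 1 per protein-coding gene, came from RefSeq.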

Additional observations from a re-analysis of the deposited data

How the results depend on the processing

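In all 18 alternatives 0 members passed, and the count of members above 0 stayed between 26 and 36 of those measured. The members' median moved from 0.15 to 0.26 after centring each array on its median, which shifted the median of all genes by 0.11. Less the median of all genes it was 0.19 both ways, which was fixed in advance because centring adds the same amount to every gene. After quantile normalization the members' median less that of all genes was 0.14, and after cyclic loess 0.15. The members' median ran from 0.10 to 0.23 with 1 array left out. The number of all genes called was 9 without the variance trend and 277 with array weights, and 24 to 128 with 1 array left out. Called genes of the other cell cycle lists, 1 as reported, were 0 without the trend and 0 to 1 with 1 array left out. Same-numbered arrays did not deviate together consistently (correlations -0.076, 0.21 and -0.14 for numbers 1, 2 and 3). Differently numbered arrays of the 2 conditions ran from -0.30 (hypoxia 2 with normoxia 1) to 0.32 (hypoxia 3 with normoxia 1). With the replicate block 63 genes were called against 85, with 0 members. Of the fold changes of single members under all alternatives, 672 kept their sign and 28 did not, and 0 belonged to a called gene. The other filters, the variance models and the replicate block cannot alter a fold change here, so part of the 672 was fixed in advance. With all probe sets averaged, Bub1b was at -0.10, Cdc25c -0.13, Cenpa 0.48, Cenpf -0.30, Kif23 -0.00060, Kif2c -0.26, Nusap1 -0.15, Tpx2 -0.089 and Ttk -0.18. After median centring Ccnb2 was at 0.021, Nek2 0.060 and Nuf2 0.024. Bub3 was at -0.021 after quantile normalization and -0.026 after cyclic loess, and Incenp at -0.11 without x_at and s_at probe sets. With 1 array left out, Bub3 ran from -0.091 to 0.21, Cdc25c from -0.13 to 0.23, Nek2 from -0.13 to 0.085, Nuf2 from -0.16 to 0.029, Plk1 from -0.076 to 0.18 and Ube2c from -0.024 to 0.17. The causes were not tested.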
